A study of Mus musculus with 2 samples.

Results

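The 10 genes described here belong to or accompany the class I antigen presentation pathway, measured in single cells of the mouse small intestinal epithelium. They were taken by their symbols, from a list made with earlier results of these data known. They are B2m, H2-K1, H2-D1, H2-Bl, H2-T3, H2-Q1, H2-Q2, Tap1, Psmb8 and Ubd, which are 10 of the 55357 rows of the deposited tables. The cells came from Adipfl/fl mice, in which both alleles of the adiponectin gene Adipoq carry loxP sites and no Cre is present, and from Adipfl/flpVilli-CreT mice, in which Cre driven by the villin promoter also acts on those sites in epithelial cells. The mice were 8-week-old males pooled within a genotype. The study describes the material as enriched for crypts. Each genotype was measured in 1 droplet library (10x Genomics 3' chemistry, in which each barcode stands for a cell and each unique molecular identifier, or UMI, for a captured transcript). With 1 library per genotype no test was possible, and every interval below is an exact 95% interval that covers counting error only.

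A barcode was kept if it had over 500 genes and if mitochondrial genes gave less than 25% of its UMIs. The Adipfl/fl library then held 3069 cells with 25687687 UMIs and the Adipfl/flpVilli-CreT library 5555 cells with 48895126 UMIs. The members made up 0.579% and 0.615% of these UMIs. Enterocytes of the villus were the main population (2003 and 3979 cells), and T cell-like cells numbered 341 and 424. Adipoq had 1 and 0 UMIs over all barcodes, so the targeted gene could not check the genotype labels. The libraries shared 31 barcodes, 3 of them among the kept cells.

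MHC class I molecules show peptides from inside the cell to CD8 T cells. The heavy chains encoded by H2-K1 and H2-D1 are the classical ones, and those of the H2-Q and H2-T regions are nonclassical. B2m encodes the light chain that heavy chains pair with, Psmb8 a catalytic subunit of the immunoproteasome that cuts the peptides, and Tap1 a chain of the transporter that carries them into the endoplasmic reticulum. H2-T3 encodes the thymus leukemia antigen, a ligand of the CD8 alpha homodimer on intraepithelial lymphocytes, and is known for its expression in the epithelium of the small intestine. Ubd encodes FAT10, a ubiquitin-like modifier that targets proteins to the proteasome. Interferon gamma induces most of these genes, and Ubd also responds to tumor necrosis factor.

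In the GRCm38 annotation (GENCODE M21) 9 of the 10 members lie on chromosome 17, in the order H2-K1 (chr17:33996017-34000347), Tap1 (chr17:34187553-34197225), Psmb8 (chr17:34197721-34201454), H2-D1 (chr17:35262730-35267499), H2-Q1 (chr17:35320405-35325099), H2-Q2 (chr17:35342242-35346762), H2-Bl (chr17:36080115-36084223), H2-T3 (chr17:36185572-36190287) and Ubd (chr17:37193892-37196095). B2m lies on chromosome 2 (chr2:122147686-122153083). H2-Bl is annotated as a polymorphic pseudogene and the others as protein coding. Because the chemistry reads transcript ends, the last 500 bases of each member's transcripts were searched for stretches of 91 bases shared with other genes. At most 3.17% of the stretches of a member were shared, for H2-Q1 with H2-Q2, so these neighbours were largely told apart by sequence.

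The start regions of members are shown where they hold a match to a motif of interferon or NF-kB signalling, whatever the course of the gene along the villus. Sequences were RefSeq promoters on GRCm38.p6, from 250 bases before to 50 bases after the start site, which held 8 of the 10 members (not H2-Bl and H2-Q1). The motifs searched, on both strands, were AANTGAAA, a form of the interferon-stimulated response element, and GGGNN followed directly by TTNCC, a form of the kappa B site. They were chosen after the sequences had been read. The capitals mark the matches, and each sequence runs 5' to 3' on the strand of its gene.
B2m (chr2:122147535-122147585, plus strand): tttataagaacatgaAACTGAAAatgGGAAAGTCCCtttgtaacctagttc
H2-K1 (chr17:34000415-34000473, minus strand): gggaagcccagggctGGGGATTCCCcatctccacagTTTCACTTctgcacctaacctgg
H2-D1 (chr17:35262923-35262951, plus strand): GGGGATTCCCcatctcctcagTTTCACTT
H2-T3 (chr17:36190259-36190288, minus strand): cagaactatagTTTCACTTtttgctctctg
Ubd (chr17:37193803-37193891, plus strand): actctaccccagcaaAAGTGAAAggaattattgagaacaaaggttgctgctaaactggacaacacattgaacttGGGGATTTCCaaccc
The 29 bases that span both matches in H2-K1 and H2-D1 were alike at 28 positions. In Ubd the interferon motif began 74 bases and the kappa B motif 15 bases before the start site. Both motifs matched in B2m, H2-K1, H2-D1 and Ubd, the interferon motif alone in H2-T3, and neither in H2-Q2, Tap1 and Psmb8. Of 27025 promoters of the same length, 6.61% held the interferon motif, 4.71% the kappa B motif and 0.326% both. A match describes the letters and does not show binding.

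How the members change as enterocytes move from the bottom of the villus to its tip was asked first. Clusters were built without the members among the variable genes and were named from markers. A score made of bottom landmarks (such as Reg3g and Plac8) and tip landmarks (such as Ada, Nt5e and Apoa4) ordered the 8 enterocyte clusters as 4 (villus bottom-like), 8 and 6 (mid-villus-like), 3 and 0 (no name, enterocyte genes high) and 1, 7 and 2 (villus tip-like). A level is a gene's UMIs per 1000000 UMIs over all cells of the class (CPM). For classes compared within a library, a gene was counted as higher or lower when its fold reached 1.5 in the same direction in both libraries. It also needed at least 20 UMIs in each library over the compared classes together.

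Higher in villus tip-like than in villus bottom-like cells were 7 members (B2m, H2-K1, H2-D1, H2-Bl, H2-Q1, H2-Q2 and Ubd), 2 were lower (H2-T3 and Psmb8), and Tap1 stayed within the limit in both libraries. Over all 9990 genes measured, 13.6% were higher and 59.7% lower. The median log2 fold of the members was 1.15 in Adipfl/fl and 1.2 in Adipfl/flpVilli-CreT, where that of all genes was -1.14 in both. The direction of most members therefore ran opposite to that of most transcripts, in a list made with earlier results of these data known.

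Both sides of this comparison differ in depth. Villus bottom-like cells had a median of 21583 and 20258 UMIs and 6.56% and 6.13% mitochondrial UMIs, and villus tip-like cells 3824 and 3531 UMIs and 18.8% and 19.0% mitochondrial UMIs. Counted as mean UMIs per cell, only Ubd was still higher at the tip (7.67-fold and 5.03-fold), H2-K1 (0.839 and 0.794) and H2-Bl (0.809 and 0.544) were not past the limit in both libraries, and the other 7 members were lower. The rise of the heavy chains and of B2m thus holds for their share of the transcripts and not for their number per cell. Whether a cell at the tip holds less RNA or gives up less of it to capture cannot be told apart in these counts.

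Ubd had the steepest rise. Its level was 2.02 CPM in villus bottom-like cells of Adipfl/fl mice (11 UMIs) and 4.16 CPM in those of Adipfl/flpVilli-CreT mice (47 UMIs), against 87.5 and 134 CPM in villus tip-like cells. The fold was 43.2 (interval 23.7 to 87.8) in Adipfl/fl and 32.3 (24.1 to 44.2) in Adipfl/flpVilli-CreT. The increase was not even along the order. In Adipfl/fl the level went from 9.31 and 12.7 CPM in clusters 8 and 6 to 24.9 in cluster 3, 87.7 in cluster 0 and a peak of 126 in cluster 1. In Adipfl/flpVilli-CreT it went from 5.07 and 14.1 CPM in clusters 8 and 6 to 84.0 in cluster 3 and a peak of 200.2 in cluster 0, followed by 184 in cluster 1. In both libraries Ubd then fell towards cluster 2, the cluster with the highest score, to 49.5 and 71.0 CPM. Most of the Ubd rise took place between the mid-villus-like clusters and cluster 0. Ubd was among the 10 leading genes of clusters 0 and 1, although it took no part in the clustering.

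**Figure D1:**
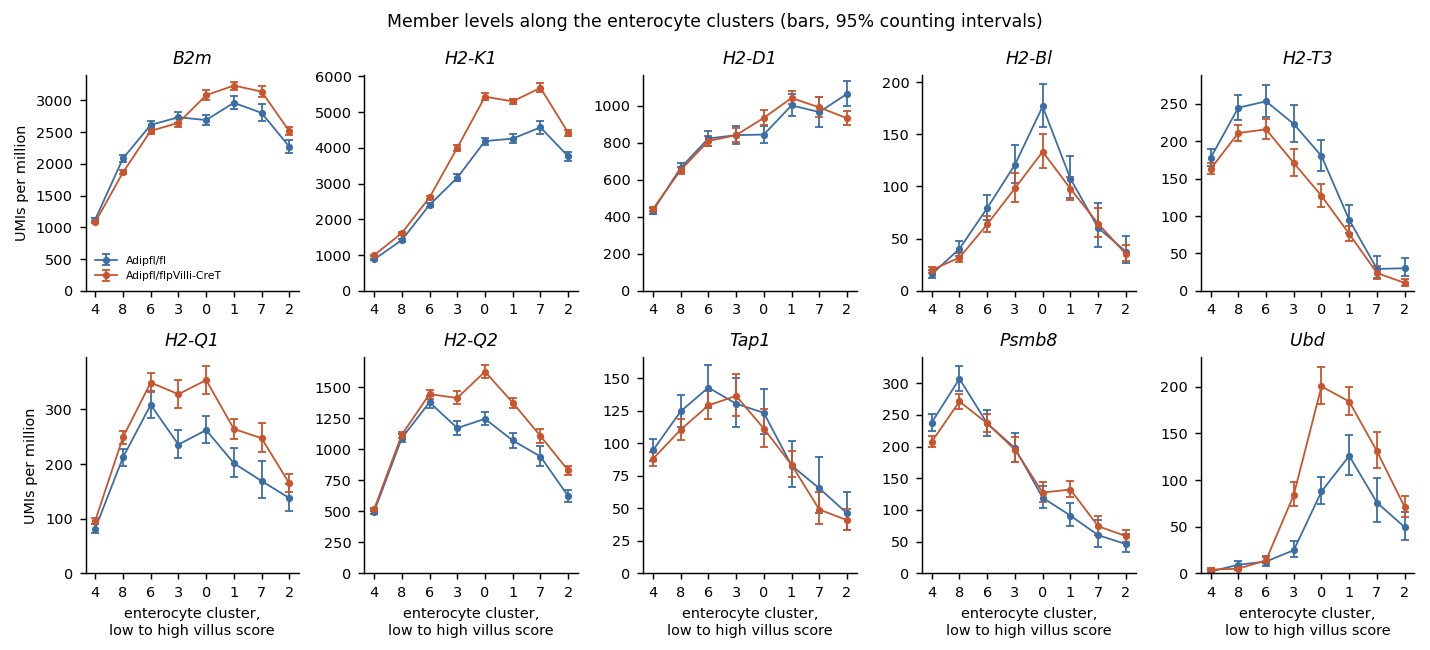
Levels of the 10 members in CPM (y axis, from 0) in the 8 enterocyte clusters ordered by villus score (x axis, cluster numbers), with 1 line per library and exact 95% counting intervals. H2-K1, B2m and H2-D1 climb to a plateau, from which H2-K1 and B2m dip in cluster 2, H2-Q1, H2-Q2 and H2-Bl peak in the middle, H2-T3, Psmb8 and Tap1 end below their starting level, and Ubd starts near 0 and peaks in clusters 0 and 1.

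The classical heavy chains and the light chain rose to a plateau. H2-K1 went from 878 to 4152 CPM in Adipfl/fl (4.73-fold, 4.57 to 4.89) and from 995 to 5069 CPM in Adipfl/flpVilli-CreT (5.10-fold, 4.99 to 5.21). H2-D1 went from 432 to 1017 CPM (2.35-fold, 2.22 to 2.49) and from 442 to 995 CPM (2.25-fold, 2.17 to 2.33). B2m went from 1123 to 2680 CPM (2.39-fold, 2.30 to 2.47) and from 1080 to 2964 CPM (2.74-fold, 2.68 to 2.81). H2-K1 was highest in cluster 7 in both libraries (4574 and 5678 CPM), and B2m in cluster 1 (2963 and 3233 CPM). The increase in H2-K1 exceeded that in H2-D1 and B2m beyond counting error in both libraries.

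The CPM of H2-Bl, H2-Q1 and H2-Q2 peaked before the end of the order. H2-Bl rose from 15.8 and 19.9 CPM in the bottom-like cells to a peak of 177 and 133 CPM in cluster 0, then fell to 37.7 and 35.3 CPM in cluster 2. H2-Q1 rose from 81.9 and 96.3 CPM to 308 CPM in cluster 6 of Adipfl/fl and 353 CPM in cluster 0 of Adipfl/flpVilli-CreT, and H2-Q2 from 496 and 515 CPM to 1377 and 1624 CPM in the same 2 clusters. H2-Q1 and H2-Q2 followed each other closely over the 16 points of cluster and library (Pearson r = 0.98 on the log2(CPM + 1) scale), which share libraries and depth. When cluster 2 alone stood for the tip, H2-Q2 no longer passed the fold rule (mean log2 fold 0.51).

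H2-T3 had the opposite course. It was already at 178 and 163 CPM in villus bottom-like cells, highest in cluster 6 (253 and 216 CPM), and lowest in clusters 7 and 2 at the end of the order. In Adipfl/fl these stood at 29.3 CPM (17 UMIs) and 30.1 CPM (28 UMIs), and in Adipfl/flpVilli-CreT at 23.8 CPM (33 UMIs) and 10.6 CPM (26 UMIs). Tip-like over bottom-like, its fold was 0.322 (0.269 to 0.383) and 0.264 (0.233 to 0.298). The ligand of the CD8 alpha homodimer and the classical heavy chains thus had their highest CPM in different enterocytes. In UMIs per cell this difference in the place of the peak was not seen. H2-K1 (26.8 and 31.7) and H2-D1 (12.6 and 12.8) were highest in cluster 8, where H2-T3 (4.63 and 4.14) was also at or near its highest. Tip-like over bottom-like, H2-T3 still fell further per cell (0.0571 and 0.0411-fold) than H2-K1 (0.839 and 0.794-fold) and H2-D1 (0.418 and 0.351-fold). The 5 genes with the profile most like H2-T3, over 44 points of cluster and library and 8270 genes, were Esrra (r = 0.95), Slc6a20a, Tkfc, Ahcyl2 and Adgrg7, and none of them belongs to antigen presentation. For H2-Q1 they were 2010106E10Rik (r = 0.97), Asah2, Guca2b, Mme and Treh, for Ubd Cidec (r = 0.85), Tmigd1, mt-Tn, Aldh4a1 and Creb3l2, and for B2m H2-K1 (r = 0.87), Isg15, Uba7, Ptpre and Trim12a.

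The genes that make and load the peptides did not follow the classical heavy chains in CPM. Psmb8 peaked in cluster 8 (307 and 271 CPM) and was lower in villus tip-like than in villus bottom-like cells, with 68.3 against 238 CPM in Adipfl/fl (0.287-fold, 0.244 to 0.336) and 95.3 against 207 CPM in Adipfl/flpVilli-CreT (0.459-fold, 0.421 to 0.500). Tap1 peaked in cluster 6 of Adipfl/fl (143 CPM) and cluster 3 of Adipfl/flpVilli-CreT (137 CPM) and ended at 46.3 and 41.0 CPM in cluster 2. Its fold between the named classes was 0.698 and 0.703. Over the 16 points Tap1 moved with H2-T3 (r = 0.95) and Psmb8 (r = 0.84), and H2-K1 with Ubd (r = 0.96). Over the 44 points of all clusters these values were 0.20, 0.60 and 0.70. How common such values are among all pairs of genes was not counted.

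**Figure D2:**
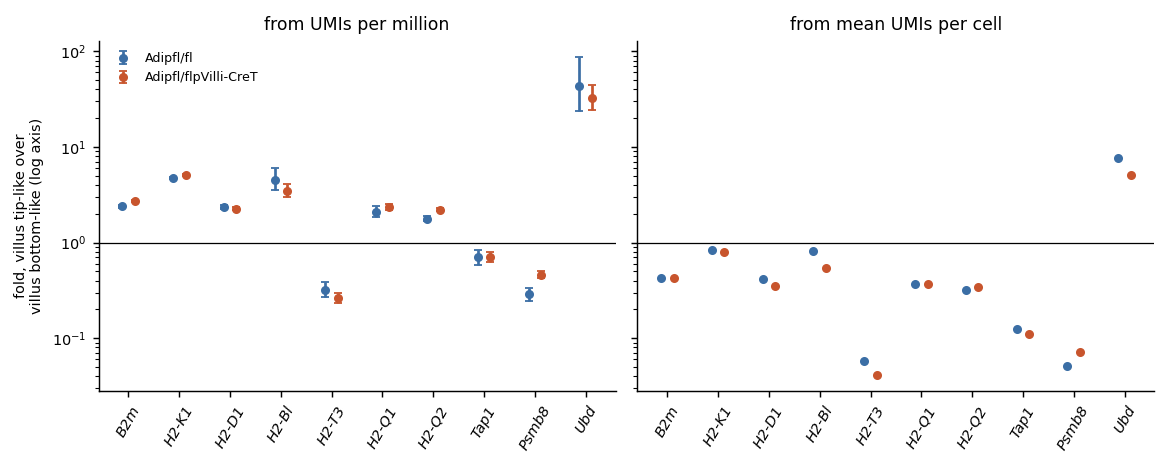
Fold of each member in villus tip-like over villus bottom-like cells (log axis) from CPM with exact 95% intervals (left) and from mean UMIs per cell (right), in both libraries. By CPM, 7 members lie above 1, while per cell only Ubd does.

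Of the other antigen presentation genes listed (25 genes, 20 with enough UMIs), 4 were higher at the tip (H2-Q4, H2-T23, Nlrc5 and Rfxank) and 12 were lower, shares near the 13.6% higher and 59.7% lower of all genes. Among the lower ones were Canx (0.0657 and 0.0763-fold), Psmb9 (0.125 and 0.141-fold), Pdia3 (0.183 and 0.158-fold), Psme1 (0.177 and 0.241-fold), Erap1 (0.203 and 0.231-fold) and Psmb10 (0.242 and 0.340-fold). Nlrc5, the transactivator of class I genes, was 3.37-fold higher (1.90 to 6.12, 34 against 21 UMIs) in Adipfl/fl and 4.16-fold (2.73 to 6.46, 83 against 32 UMIs) in Adipfl/flpVilli-CreT, while Rfx5, a subunit of the promoter complex it works with, was at 1 and 2 UMIs, against 34 and 56 in bottom-like cells. The Nlrc5 UMIs came from 608 tip-like and 225 bottom-like cells in Adipfl/fl and from 1765 and 441 in Adipfl/flpVilli-CreT. Per cell, Nlrc5 was thus lower at the tip in both libraries. Tap2 was not past the limit (0.798 and 1.09-fold). The median log2 fold of this list was -1.39 and -1.50, near the -1.14 of all genes in both libraries.

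Of 37 genes listed for interferon and NF-kB signalling, 34 had enough UMIs, 14 were higher at the tip and 5 lower, where 13.6% of all genes were higher and 59.7% lower. Isg15, a ubiquitin-like modifier induced by interferon, had the highest fold (11.1 and 8.11), followed by Gbp2 (9.73 and 5.64), Irf7 (5.51 and 5.75), Ifit1 (3.91 and 4.76), Relb (4.13 and 3.95), Stat2 (3.30 and 2.99) and Tnfrsf1a, a receptor of tumor necrosis factor (2.64 and 3.13). Irf1 was not past the limit (1.22 and 1.09-fold). The median log2 fold of this list was 0.53 and 0.46, against -1.14 for all genes. Per cell, Isg15 was the only one of these genes above 1 in both libraries (1.97 and 1.26-fold), and Irf7 was 0.979 and 0.897.

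Ubd transcripts were unevenly spread among villus tip-like cells. After each cell was thinned to 2000 UMIs (30 and 107 shallower cells left out), 11.2% of 578 cells of Adipfl/fl (exact binomial interval 8.79% to 14.1%) and 16.7% of 1658 cells of Adipfl/flpVilli-CreT (14.9% to 18.6%) had a Ubd UMI. Before thinning the shares were 17.8% and 24.7%. In T cell-like cells, whose barcodes also hold RNA of enterocytes, the thinned shares were 0.313% and 1.86%. The variance of the Ubd count over tip-like cells was 2.33 and 2.58 times its mean, where that of H2-Bl, with a mean of 0.154 and 0.148 UMIs against 0.182 and 0.272 for Ubd, was 1.01 and 1.07 times its mean. As deposited, the 61 and 176 tip-like cells with most Ubd, of 608 and 1765, held 81.1% and 71.9% of its UMIs. Single cells reached 13 and 18 Ubd UMIs.

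Cells with a Ubd UMI were then compared with the other tip-like cells in the thinned data (65 against 513 and 277 against 1381 cells), a comparison chosen after the uneven spread was seen. Of the 9 other members, Tap1 alone passed the fold rule, with 2.38-fold (1.27 to 4.24, 16 against 53 UMIs) in Adipfl/fl and 1.51-fold (1.04 to 2.14, 42 against 139 UMIs) in Adipfl/flpVilli-CreT. Over 4199 genes, 1.79% were higher and 1.48% lower. H2-K1 had folds of 1.34 (1.24 to 1.45) and 1.3 (1.25 to 1.35), B2m of 1.16 and 1.23, and Psmb8 of 1.97 and 1.05. From the antigen presentation list H2-Q4 was higher (1 of 12 measured), and from the interferon and NF-kB list Irgm1, Gbp7 and Igtp, 3 GTPases induced by interferon gamma (3 of 28 measured). Irgm1 had 2.63-fold (0.946 to 6.43, 7 against 21 UMIs) and 4.10-fold (2.26 to 7.38, 23 against 28 UMIs). The cells with Ubd had median villus scores of 0.898 and 0.904 and those without 0.922 and 0.925, and their mitochondrial shares were 19.7% and 19.8% against 19.6% and 19.6%. The counts were low, and when cells were thinned to 1000 UMIs Tap1, H2-Q4, Irgm1 and Igtp no longer passed the rule.

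**Figure D3:**
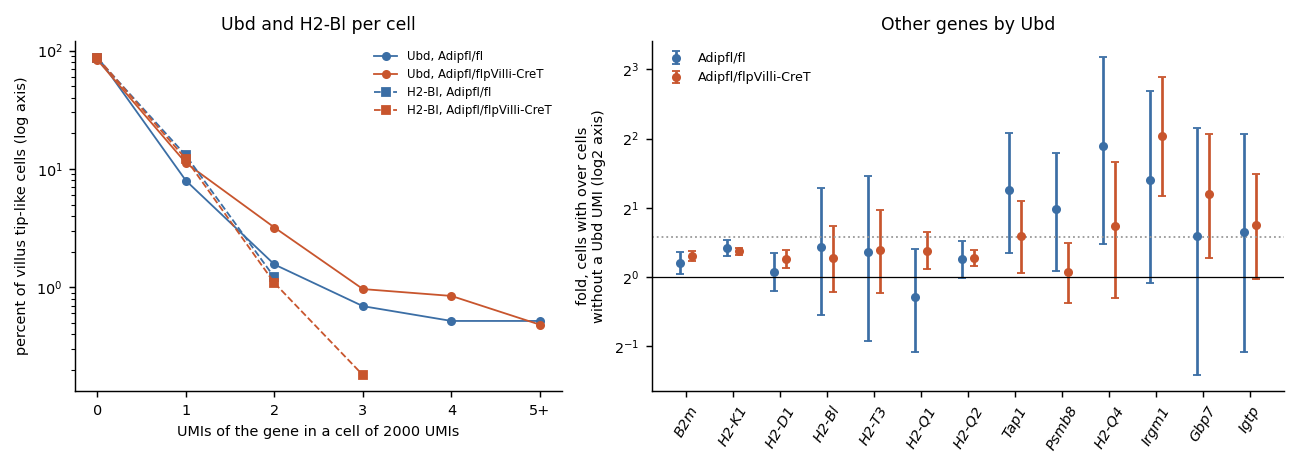
Left, percent of villus tip-like cells (log axis) by the number of Ubd or H2-Bl UMIs in a cell thinned to 2000 UMIs, where classes without cells have no point. Ubd extends to 5 or more UMIs and H2-Bl ends at 2 and 3. Right, folds with exact 95% intervals (log2 axis) of the other members and of H2-Q4, Irgm1, Gbp7 and Igtp in cells with over cells without a Ubd UMI, where the dotted line marks 1.5.

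Outside the absorptive enterocytes the levels differed by class. In cycling-like cells of the crypt H2-K1 stood at 474 and 653 CPM, B2m at 692 and 665 CPM and H2-Q1 at 5.72 and 17.3 CPM, below the bottom-like enterocytes. Goblet-like cells held 1830 and 2109 CPM of H2-K1 and 6.33 and 8.61 CPM of Ubd. Tuft-like cells had the highest H2-D1 of the named epithelial classes (1871 and 1756 CPM), and enteroendocrine-like cells in Adipfl/fl the lowest B2m (283 CPM, 114 UMIs). Cycling-like cells include a cluster of 4 and 67 cells that came mostly from Adipfl/flpVilli-CreT.

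The next comparison asked how the members stand in the lymphocytes of the epithelium. T cell-like cells (341 and 424 cells, median 4445 and 3972.5 UMIs) were set against villus tip-like cells of the same library. Psmb8 and Tap1 were higher in T cell-like cells, 6 members were lower (H2-K1, H2-Bl, H2-T3, H2-Q1, H2-Q2 and Ubd), and B2m and H2-D1 were within the limit. Over 9354 genes, 57.1% were higher and 22.9% lower, so the 2 higher members are fewer than the share of all genes and the 6 lower ones more. The summed T cell markers stood at 46096 and 42935 CPM in T cell-like cells and at 39.1 and 49.3 CPM in the tip-like cells, with 1 and 0 of the 11 markers at 0 in the latter.

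Psmb8 was at 413 and 422 CPM in T cell-like cells against 68.3 and 95.3 CPM in the tip-like cells (6.05-fold, 5.12 to 7.18, and 4.43-fold, 3.99 to 4.92). Tap1 was at 118 and 98.6 CPM against 66.0 and 61.9 CPM (1.79-fold and 1.59-fold). The log2 fold of Tap1 (0.842 and 0.671) lay below the median of all genes (1.24 and 1.14), and that of Psmb8 (2.60 and 2.15) above it. H2-K1 was lower, at 2246 and 2653 CPM against 4152 and 5069 CPM (0.541-fold and 0.523-fold). B2m (0.822 and 0.758-fold) and H2-D1 (1.37 and 1.16-fold) stood near their levels in enterocytes. Against mid-villus-like cells instead, Psmb8 (1.48-fold, 1.35 to 1.62, and 1.64-fold, 1.51 to 1.77), Tap1 (0.898 and 0.837-fold), H2-K1 (1.25 and 1.32-fold) and Ubd (0.591 and 1.95-fold) no longer passed in both libraries. H2-D1 then did (1.92 and 1.62-fold), so the higher call of Psmb8 and Tap1 rests on the tip-like cells as the reference. The alpha beta cluster (60 and 127 cells) had more of B2m (2839 and 2639 CPM), H2-K1 (3086 and 3214 CPM), Psmb8 (609 and 611 CPM) and Tap1 (244 and 143 CPM) than the gamma delta clusters (281 and 297 cells), which had 2087 and 2100, 2092 and 2444, 378 and 352, and 95.3 and 82.0 CPM of them.

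The nonclassical members and Ubd were low in T cell-like barcodes, which also hold RNA of enterocytes. This did not hold for all class I genes. Of the 25 other antigen presentation genes listed, 20 were measured, and 17 were higher and 0 lower. Of all genes, 57.1% were higher and 22.9% lower. The 17 include the heavy chain genes H2-M3, H2-Q7, H2-Q6, H2-T22 and H2-Q4. Whether the enterocyte RNA was free RNA or came from doublets was not tested. As a measure of that RNA, 12 enterocyte genes such as Apoa4 and Fabp1 had T cell-like over tip-like ratios with a median of 0.0590 (0.0312 to 0.217) in Adipfl/fl and 0.131 (0.0825 to 1.08, Sis the highest) in Adipfl/flpVilli-CreT. H2-Q2 had a ratio of 0.0856 and 0.173, H2-Q1 of 0.114 and 0.169, H2-Bl of 0.122 and 0.194, H2-T3 of 0.198 and 0.339 and Ubd of 0.0719 and 0.125. In Adipfl/fl the intervals of H2-Q2, H2-Q1, H2-Bl and H2-T3 lay above the median of the enterocyte genes and that of Ubd (0.0340 to 0.135) held it. In Adipfl/flpVilli-CreT the intervals of H2-Bl (0.124 to 0.290) and Ubd (0.0842 to 0.178) held the median. Those of H2-Q2 and H2-T3 lay above it there, and that of H2-Q1 (0.132 to 0.215) only just. The range of the enterocyte genes is wide, Sis alone sets its upper end, and Sis and Fabp1, like H2-T3, were lower at the villus tip than at the bottom. Against mid-villus-like cells the ratio of H2-T3 was 0.0456 and 0.0684, and that of Sis 0.0189 and 0.0927. How much of these 5 members in T cell-like barcodes came from enterocytes was not tested, and no statement is made on their expression by T cells. Cd8a, the receptor chain for H2-T3, stood at 1006 and 946 CPM in T cell-like cells and 1.92 and 1.28 CPM in the tip-like cells.

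**Figure D4:**
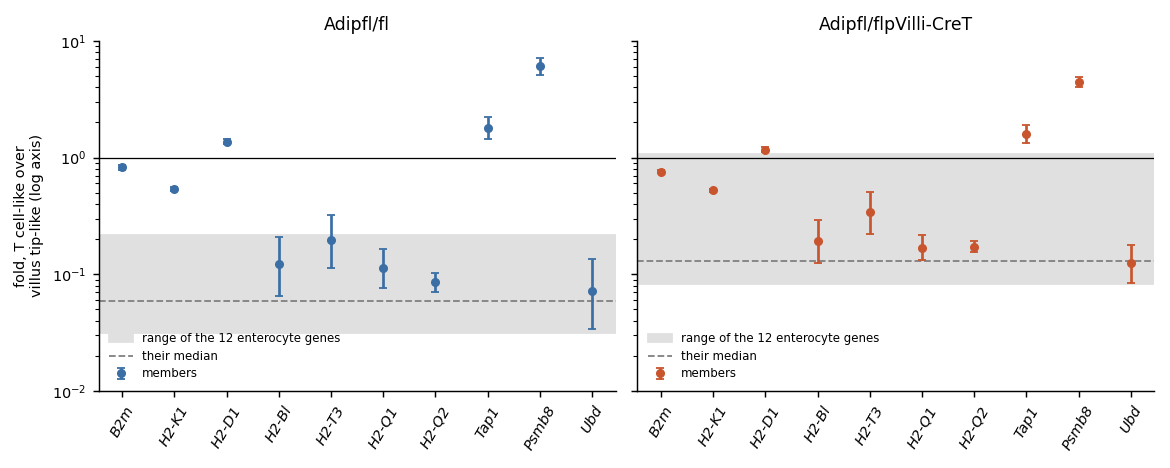
Fold of each member in T cell-like over villus tip-like cells (log axis) with exact 95% intervals, for each library, beside the range (grey) and median (dashed) of 12 enterocyte genes in the same comparison. H2-Bl, H2-T3, H2-Q1, H2-Q2 and Ubd fall in the grey range of both libraries, B2m and H2-K1 in that of Adipfl/flpVilli-CreT alone, which Sis widens to 1.08, and Psmb8, Tap1 and H2-D1 lie above 1.

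The comparison of the 2 libraries describes 1 library of each genotype and is not a test of genotype. Here a gene was counted when its fold reached 1.5 in the class named, with at least 20 UMIs in the 2 libraries together. Within the 3 named enterocyte classes the members other than Ubd were within 1.5-fold. In villus bottom-like cells 1 member (Ubd) was at least 1.5-fold higher in Adipfl/flpVilli-CreT and 0 were lower, where 5.29% and 4.68% of all genes were. In mid-villus-like cells 0 were higher or lower (background 4.78% and 5.08%), and in villus tip-like cells 1 was higher, again Ubd, and 0 lower (9.33% and 6.2%). Among the other members the folds in these 3 classes ran from 0.751 (H2-T3 in tip-like cells) to 1.39 (Psmb8 in tip-like cells).

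Ubd was higher in Adipfl/flpVilli-CreT at most places along the villus, but not in the mid-villus-like clusters. In tip-like cells it stood at 134 against 87.5 CPM (1.53-fold, 1.33 to 1.78), in cluster 0 at 200.2 against 87.7 CPM (2.28-fold, 1.89 to 2.77), in cluster 3 at 84.0 against 24.9 CPM (3.38-fold, 2.35 to 4.98) and in bottom-like cells at 4.16 against 2.02 CPM (2.05-fold, 1.05 to 4.39). The folds in the tip-like clusters 1, 7 and 2 were 1.46 (1.21 to 1.77), 1.72 (1.23 to 2.46) and 1.43 (1.03 to 2.03). In mid-villus-like cells it did not differ beyond counting error (0.806-fold, 0.576 to 1.14), and of its clusters, cluster 8 had less Ubd in Adipfl/flpVilli-CreT (0.545-fold, 0.326 to 0.913, 35 against 31 UMIs) and cluster 6 a fold of 1.10 (0.692 to 1.80). In 5 equal parts of the cells along the villus score the folds were 1.85, 2.30, 1.88, 1.85 and 1.24, the last with an interval of 0.985 to 1.56. These intervals do not cover the uneven spread of Ubd among cells described above, and are too narrow for it. The share of all genes past 1.5-fold was not counted in the single enterocyte clusters or in the parts of the score. The value in tip-like cells lies near the limit and fell to 1.23 with 30 principal components and to 1.36 when the 8% of cells with the highest doublet scores were removed. With a mitochondrial limit of 10%, which left 29 and 61 tip-like cells with 24 and 18 Ubd UMIs, it turned to 0.311.

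H2-K1 was slightly higher in Adipfl/flpVilli-CreT in all 3 named enterocyte classes, with 1.13-fold (1.09 to 1.17) in bottom-like, 1.11-fold (1.09 to 1.14) in mid-villus-like and 1.22-fold (1.19 to 1.25) in tip-like cells, and H2-Q1 likewise with 1.18, 1.15 and 1.32-fold. H2-T3 was lower in all 3 (0.917, 0.858 and 0.751-fold). It passed the limit near the end of the villus, with 0.634-fold (0.511 to 0.789) and 0.623-fold (0.421 to 0.932) in the last 2 of the 5 parts of the score and 0.350-fold (0.197 to 0.620, 26 against 28 UMIs) in cluster 2. These differences exceed counting error, but the spread between mice cannot be seen in 1 pooled library a genotype. For the parts of the score and cluster 2, the share of all genes past the limit was not counted.

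In T cell-like cells H2-Bl (1.53-fold), H2-Q1 (1.96-fold), H2-Q2 (2.59-fold) and Ubd (2.66-fold) were higher in Adipfl/flpVilli-CreT and 0 members were lower, where 10.7% and 8.5% of all genes were. The summed level of the 12 enterocyte genes in these barcodes was 4866 CPM in Adipfl/fl and 11397 CPM in Adipfl/flpVilli-CreT, which is 4.95% and 12.6% of the level in tip-like cells. When that share of the tip-like profile was subtracted, the folds of H2-Bl and H2-Q1 were 0.973 and 0.958 and that of H2-Q2 was 1.79. The subtraction left no Ubd in Adipfl/flpVilli-CreT. Its fold of 0.890 therefore rests on the 3 UMIs that stand for a sum of 0 and is not a measured value. Before subtraction H2-Bl had 14 and 25 UMIs, H2-Q1 31 and 71 and Ubd 10 and 31. Few were left after it, and no intervals were computed for these folds. The members that T cell-like cells held well above that background differed little, with 1.02-fold for B2m (0.974 to 1.07) and Psmb8 (0.919 to 1.13), 1.18-fold for H2-K1 (1.13 to 1.23) and 0.830-fold for H2-D1 (0.782 to 0.881). Other epithelial classes also held members past the limit. In enteroendocrine-like cells (55 and 57 cells) 5 of 8 members measured were higher in Adipfl/flpVilli-CreT (B2m, H2-K1, H2-T3, H2-Q1 and H2-Q2) and 0 lower, where 15.9% and 10.7% of all genes were. B2m was at 680 against 283 CPM there (2.40-fold) and H2-Q1 at 38 against 5 UMIs (6.52-fold, 2.56 to 21.2). In goblet-like cells H2-Q1 (2.04-fold) and H2-Q2 (1.72-fold) were higher and 0 members lower (13.8% and 5.88% of all genes), and in cycling-like cells H2-Q1 (3.02-fold), H2-Q2 (1.68-fold) and Ubd (20 against 1 UMIs) were higher and 0 lower (7.36% and 4.68%). The summed enterocyte gene level was 19743 against 8598 CPM in enteroendocrine-like, 21673 against 15473 CPM in goblet-like and 5396 against 3319 CPM in cycling-like cells, and its part in these differences was not tested. The cycling-like class also differed in make-up, with 67 against 4 cells in the cluster that came mostly from Adipfl/flpVilli-CreT. In that cluster the summed members stood at 3145 against 1459 CPM and the enterocyte genes at 11960 against 2557 CPM. Summed T cell markers in the whole class were at 316 against 17.7 CPM. The part of this make-up in the cycling-like folds was not tested.

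**Figure D5:**
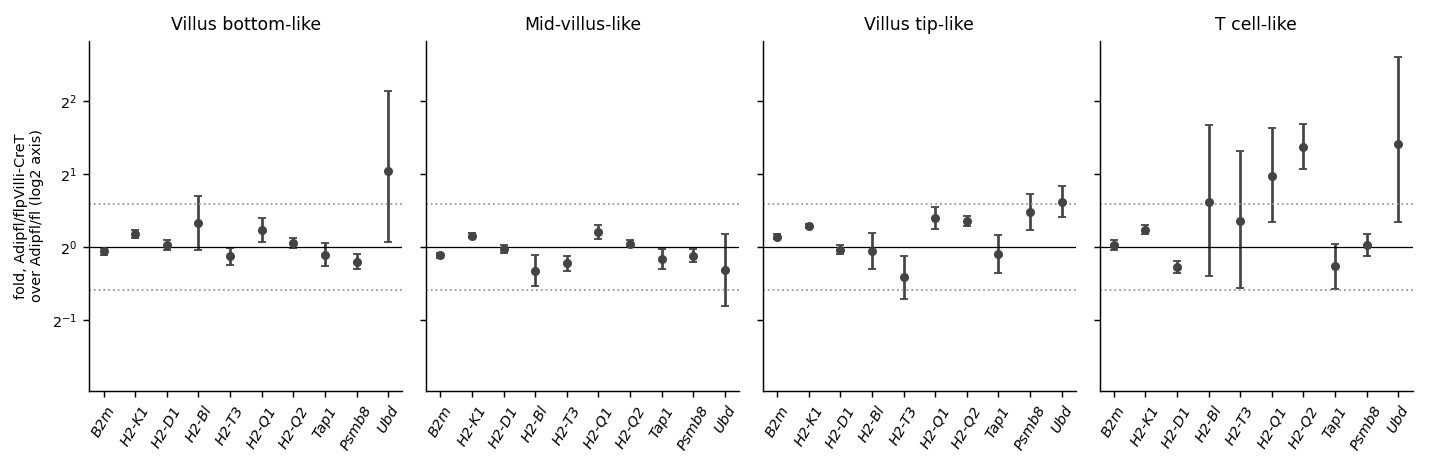
Fold of each member in Adipfl/flpVilli-CreT over Adipfl/fl (log2 axis) with exact 95% counting intervals in villus bottom-like, mid-villus-like, villus tip-like and T cell-like cells, where dotted lines mark 1.5-fold in each direction. Ubd lies above the upper line in bottom-like, tip-like and T cell-like cells and below 1 in mid-villus-like cells.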

How the data were processed

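Reads were demultiplexed by the authors (bcl2fastq 5.0.1 per the labels) and counted with Cell Ranger on mm10 (7.1.0 per the file headers). The authors deposited UMI counts, not normalized, for each gene and barcode of 1 library per genotype. From these counts, barcodes with over 500 genes and a mitochondrial share below 25% were clustered in Seurat 5.3.0 (R 4.3.3; scale factor 10000, 2000 variable genes without the members and the antigen presentation list, 20 components, resolution 0.8, and crypt clusters split again at 0.4) into 23 clusters. A class name needed at least 3 and at least 50% of its markers at 2-fold with 10 UMIs, and no other class with more markers among the 10 leading genes. This naming rule was set with the clusters in view. No doublets were taken out, since Scrublet (scanpy 1.11.5) called 3 cells in each library, too few to have worked. Genes were compared as sums of UMIs per 1000000 with exact Poisson and conditional binomial 95% intervals (scipy 1.17.1), without p-values. A sum of 0 was set to 3 UMIs in a fold. The calculation was tested on simulated data. All 10 members are named, with the listed genes past 1.5-fold in both libraries (at most 8 a list by size) and the 5 genes most alike over clusters of at least 20 cells. The members and lists were chosen with earlier results of these data known.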

Additional observations from a re-analysis of the deposited data

Results flagged for a closer look

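B2m and Psmb8 differed between the libraries in opposite directions in different enterocyte classes, each beyond counting error, and these differences were not tested because each genotype has 1 library. In Adipfl/flpVilli-CreT, B2m was at 0.961 and 0.926 of its Adipfl/fl level in villus bottom-like and mid-villus-like cells and at 1.11 in villus tip-like cells. Psmb8 was at 0.872, 0.922 and 1.39 in the same classes. All 6 values are smaller than the 1.5-fold used as the limit.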

How the results depend on the processing

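Values below are log2 folds or counts of members past the limit. Under other filters, clusterings and limits, and leaving aside the settings chosen after seeing the data (named at the end), the members called kept their direction in 125 of 126 values along the villus (118 still past the limit), in 116 of 120 against T cell-like cells (107) and in 75 of 78 between libraries (55). The settings chosen later reversed 6 of 18 values along the villus, 0 of 24 against T cell-like cells and 3 of 12 between libraries. Along the villus, counting UMIs per cell left 1 member higher in place of 7 and 7 lower in place of 2, with B2m at -1.23, H2-K1 at -0.29, H2-D1 at -1.39, H2-Bl at -0.59, H2-Q1 at -1.44 and H2-Q2 at -1.60. Of T cell-like cells, 1 member was higher in place of 2 with a mitochondrial limit of 10%, 30 components, the 8% of cells with the highest doublet scores removed, mitochondrial genes left out of the denominator, a fold of 2, mid-villus-like cells as the enterocytes or the gamma delta clusters alone. With mid-villus-like cells that member was H2-D1 (0.82), Psmb8 was no longer past the limit in both libraries (0.64), H2-K1 was at 0.36, Tap1 at -0.21 and Ubd at 0.10. Between libraries, of 6 calls higher over 4 classes, 3 were left with the 10% limit, resolution 0.4, a fold of 2 or enterocyte RNA subtracted, 2 with cells thinned to 2000 UMIs and 1 with high doublet scores removed. Lower calls, 0 as reported, numbered 2 with the 10% limit or in the 5 parts of the villus score and 1 with 30 components, doublet removal or thinning. H2-Bl in T cell-like cells was at -0.12 as the mean CPM of single cells, -0.82 when thinned and -0.040 after subtraction, where H2-Q1 was at -0.062 and Ubd at -0.17. That value of Ubd rests on the 3 UMIs set for a sum of 0. The 10% limit left 29 and 61 tip-like cells, with Psmb8 at 0.14 along the villus, H2-K1 at 0.033 and 3 lower members in place of 6 in T cell-like cells, and Ubd at -1.69 between libraries in tip-like cells. For tip-like cells with Ubd, thinning to 1000 UMIs gave 0 members and 0 antigen presentation genes, and no thinning 2 antigen presentation and 5 interferon genes. The per-cell, cluster 2, T cell subset and Ubd-cell alternatives, and the subtraction in the comparison between libraries, were chosen after seeing the data. No paired analysis was possible because each genotype has 1 library. The causes of these changes were not tested.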
